A study of Danio rerio with 27 samples.

Results

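The comparison described here set wild-type zebrafish larvae with a knockout of TGR5 against wild-type larvae with a knockout of CYP7a1. Its members were the 8 libraries of those groups, 4 and 4, of 27 libraries in the series. The first group carried the genotype WT;SLC45a2-KO;TGR5-KO and the second WT;SLC45a2-KO;CYP7a1-KO, so both groups also carried the knockout of the melanin transporter SLC45a2 that served as a pigmentation marker. The animals were crispants, in which guide RNAs complexed with Cas9 were placed in the yolk of the embryo. Editing is then expected to be mosaic, and no clonal line was raised. Whole larvae were collected at 21 days post fertilisation and pooled. How many larvae made up a pool was not given, nor which clutch each pool came from. The 4 WT larvae libraries with the SLC45a2 knockout alone (WT;SLC45a2-KO) are quoted for their levels and for median changes by list, and no call against them is given. The TGR5-KO and CYP7a1-KO libraries of the PY background, 5 and 5, were used for the same contrast in that background and for the test of the difference between backgrounds. PY larvae lack p53, overexpress YAP constitutively in the liver, and are described in the labels as bearing tumours and being cachectic.

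TGR5, encoded by gpbar1, is a cell-surface receptor for bile acids. In mammals it couples to the stimulatory G protein and cAMP, and it has been linked there to energy expenditure through type 2 deiodinase and uncoupling protein 1. CYP7A1 is the rate-limiting enzyme of the classical pathway that converts cholesterol into bile acids in hepatocytes. Both gene products therefore belong to the bile acid axis, one as a sensor and the other as the first step of synthesis, and the contrast asks how the larval transcriptome differs between loss of the sensor and loss of the enzyme.

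QuantSeq sequencing, which reads a tag near the 3′ end of polyadenylated transcripts, gave between 4336462 and 4672863 counts in the TGR5-KO libraries and between 4319106 and 6238251 in the CYP7a1-KO libraries. Levels are given as scaled CPM, which are CPM (counts over the library total, times 1000000) of each library after edgeR's TMM scaling, and 3 counts corresponded to between 0.481 and 0.695 CPM before scaling. Libraries of the same group resembled each other more than libraries of different groups. Pearson correlations of log levels across genes were 0.941 to 0.951 among TGR5-KO libraries, 0.943 to 0.958 among CYP7a1-KO libraries and 0.897 to 0.911 between the groups. The single entry for the mitochondrial genome took 23.7 to 27.6% of counts in TGR5-KO larvae, against 29.3 to 34.1% in CYP7a1-KO larvae and 24.8 to 29.2% in SLC45a2-KO larvae. Its part in the differences below was not tested. Scaling factors estimated without genes of over 1% of counts called 3275 genes, against the 3278 reported. The library totals still included that entry there, so this setting is no test of its part. Several genes with a firm place in whole larvae, such as ckma, krt5, hnf4a and col1a1a, were listed at 0 in all 8 libraries, and nothing is read from such entries. Fewer cells of a type and less RNA per cell cannot be told apart in whole-larva RNA.

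The targeted genes were examined first. cyp7a1 stood at 27.4, 20.5, 37.3 and 34.9 scaled CPM in the TGR5-KO libraries, against 55.7, 47.1, 42.6 and 33.4 in the CYP7a1-KO libraries and 4.03, 3.64, 0.625 and 1.32 in the SLC45a2-KO libraries. The CYP7a1-KO libraries thus held no less cyp7a1 RNA than the TGR5-KO libraries, and the 2 groups overlapped (log2 change -0.57 ± 0.28 SE, edgeR adjusted p = 0.149; exact two-sided permutation test on the means, p = 0.0857, where 4 against 4 cannot go below 0.0286). Over 20 alternatives the adjusted p of cyp7a1 ran from 0.0114 to 0.33 and 3 of them passed the test, each a fit of the 8 libraries alone. Both knockout groups lay above all the SLC45a2-KO libraries. A tag near the 3′ end does not read whether a transcript carries an edited exon, so the level of cyp7a1 does not check the knockout. gpbar1 gave 6 counts over the 4 TGR5-KO libraries, against 4 over the 4 CYP7a1-KO libraries and 8 in SLC45a2-KO libraries, which is too few to check the TGR5 label (exact two-sided permutation p = 0.543). slc45a2 gave 1 count in TGR5-KO and 2 counts in CYP7a1-KO larvae (exact two-sided permutation p = 1).

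The 2 knockout groups of wild-type larvae had widely different transcriptomes. The part of the knockout cannot be told apart from that of clutch or hour of collection, which are not given. Of 15521 genes tested, 3278 (21.1%) differed at an edgeR adjusted p under 0.05, 1839 of them (11.8% of all tested) higher and 1439 (9.27%) lower in TGR5-KO larvae. Among the genes that differed, 1639 did so by at least 2-fold, 886 higher and 753 lower, and 317 by at least 4-fold. In 4235 of the 15521 genes (27.3%) the 4 TGR5-KO libraries did not overlap the 4 CYP7a1-KO libraries, and 2843 of the called genes were of this kind. The median log2 change of all genes tested was -0.045, so scaling left little overall shift. Genes of protein folding, protein and ribosome production, DNA replication, cholesterol synthesis and liver secretion were on the higher side in TGR5-KO larvae. Genes of the FoxO and autophagy programme and of epidermis were on the lower side. The lists of endoplasmic reticulum chaperones and secretion, ribosome biogenesis, tRNA synthetases, and FoxO and autophagy were compiled after the values had been seen. Their counts are therefore descriptive. Counts of lists below are read against the shares of all genes, 11.8% higher and 9.27% lower.

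**Figure D1:**
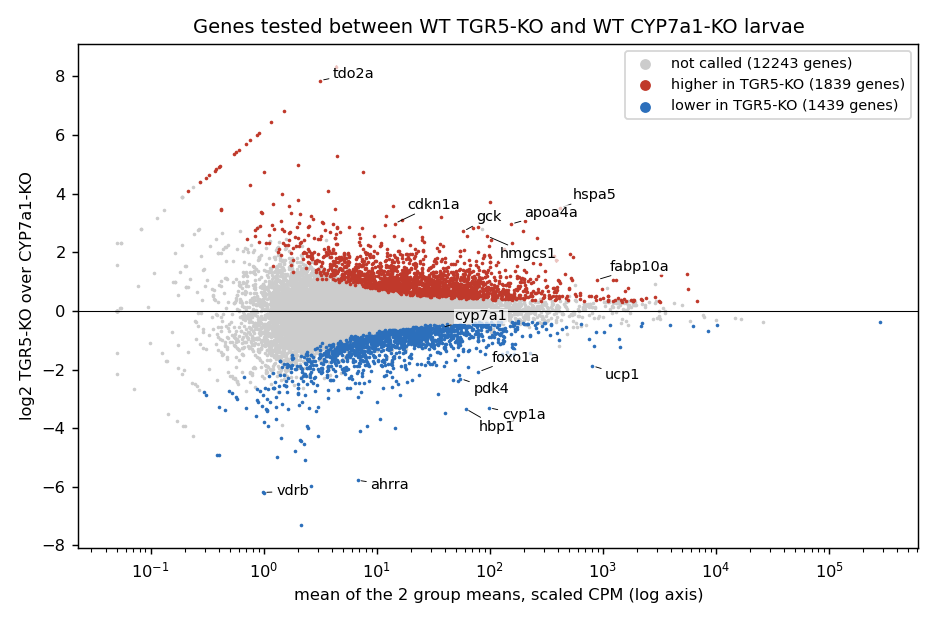
Log2 change of each gene tested, TGR5-KO over CYP7a1-KO in WT larvae, against the mean of the group means in scaled CPM on a log axis. The 1839 genes higher in TGR5-KO and the 1439 lower ones lie above and below 0 across the range of levels, and the straight streaks at the low end are genes with no counts in one group, whose fitted changes are not bounds.

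Genes of the folding machinery of the endoplasmic reticulum, the compartment in which secreted proteins are folded, were higher in TGR5-KO larvae. hspa5, which encodes the main luminal chaperone BiP, stood at 801, 757, 818 and 701 scaled CPM in TGR5-KO libraries, against 66.3, 66.8, 69.8 and 67.8 in CYP7a1-KO libraries and 158.9 to 223 in SLC45a2-KO libraries. The groups were far apart, by 11.4-fold (log2 change 3.51 ± 0.56 SE, edgeR adjusted p = 9.82e-05), and libraries of one group lay close together. pdia4, a protein disulfide isomerase, stood at 80.2, 59.5, 66.8 and 58.8 scaled CPM in TGR5-KO, against 5.99, 7.22, 8.03 and 7.41 in CYP7a1-KO larvae (log2 change 3.20 ± 0.54, adjusted p = 0.000193). hyou1, a chaperone of the HSP70 family in the same compartment, averaged 138 ± 13.8 scaled CPM in TGR5-KO and 18.8 ± 2.90 in CYP7a1-KO larvae (SD, n = 4 each). hsp90b1, the luminal HSP90, averaged 340 ± 46 in TGR5-KO and 51.8 ± 7.57 in CYP7a1-KO larvae (SD, n = 4 each). None of these 4 genes overlapped between the groups, which the rule that named them required. For pdia4 the SLC45a2-KO libraries, at 34.2 to 55.2, were nearer the TGR5-KO level.

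Taken over a list of 34 tested genes of endoplasmic reticulum chaperones and the secretory route, 31 were higher and 0 lower in TGR5-KO larvae, with a median log2 change of 0.90 against -0.045 for all genes. That list was put together after the values had been seen. Its median was 0.34 for TGR5-KO over SLC45a2-KO and -0.73 for CYP7a1-KO over SLC45a2-KO, so CYP7a1-KO larvae lay farther from SLC45a2-KO larvae than TGR5-KO larvae did. Among 31 genes of the unfolded protein and amino acid stress responses, which share some members with it, 14 (45.2%) were higher and 3 (9.68%) lower. Among all genes 11.8% were higher and 9.27% lower. A chaperone outside the endoplasmic reticulum was higher as well. hsp90aa1.1, a cytosolic HSP90 known in zebrafish for folding muscle myosin, averaged 364 ± 58.2 scaled CPM in TGR5-KO and 43.4 ± 5.72 in CYP7a1-KO larvae (SD, n = 4 each; log2 change 3.07 ± 0.52, edgeR adjusted p = 0.000187). serpinh1b, the collagen chaperone of the endoplasmic reticulum, stood at 52.1, 36.0, 43.0 and 37.7 in TGR5-KO, against 9.21, 2.61, 7.05 and 4.56 in CYP7a1-KO larvae. Its SLC45a2-KO libraries, at 5.42 to 9.62, resembled the CYP7a1-KO ones, so the side on which SLC45a2-KO larvae fell differed between chaperones.

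**Figure D2:**
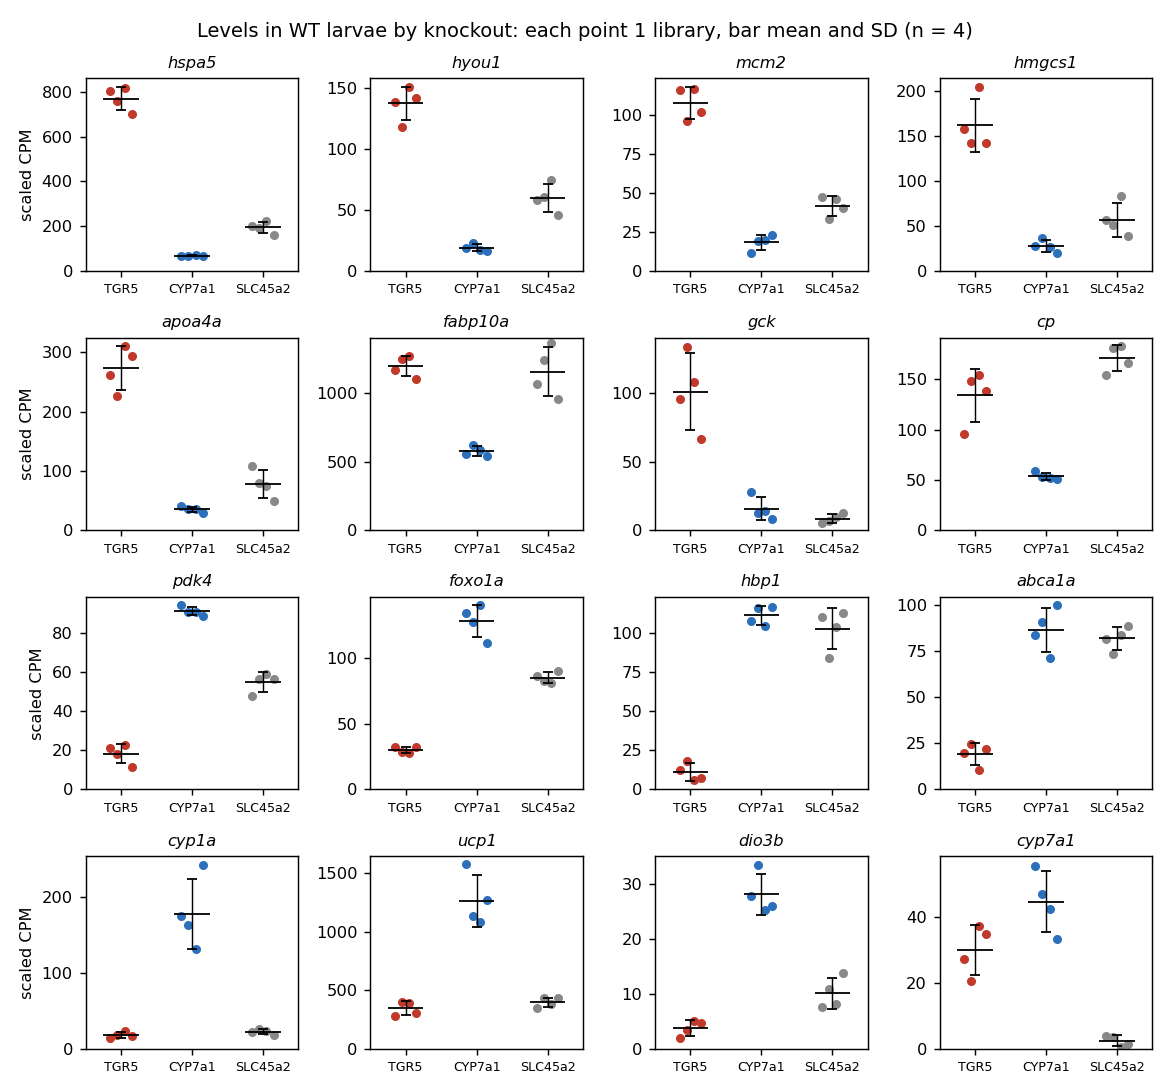
Scaled CPM of 16 genes in WT larvae, by knockout. Each point is 1 library, and the bars are the mean and SD of 4 libraries. hspa5 lies above 700 in all TGR5-KO libraries and below 70 in all CYP7a1-KO libraries, cyp1a and ucp1 are high in CYP7a1-KO libraries alone of the 3 groups, and cyp7a1 overlaps between TGR5-KO and CYP7a1-KO.

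Genes that build the translation apparatus were higher in TGR5-KO larvae. Of 35 ribosome biogenesis genes, 21 rose and 0 fell, with a median log2 change of 0.83. Of 17 genes for tRNA synthetases, the enzymes that charge tRNAs, 15 rose and 0 fell, with a median of 0.95. Both lists were compiled after the values had been seen. Among all genes 11.8% were higher and 9.27% lower. The tRNA synthetases had a median of 0.06 for TGR5-KO over SLC45a2-KO and of -0.84 for CYP7a1-KO over SLC45a2-KO. For them CYP7a1-KO larvae thus lay farther from SLC45a2-KO larvae. rrs1, a regulator of ribosome assembly, stood at 37.4, 33.7, 37.7 and 33.1 scaled CPM in TGR5-KO, against 9.44, 5.01, 11.0 and 7.22 in CYP7a1-KO larvae. gnl3, the nucleolar GTPase nucleostemin, averaged 152.7 ± 16.03 in TGR5-KO and 47.6 ± 6.44 in CYP7a1-KO larvae, and qars, glutaminyl-tRNA synthetase, 32.9 ± 2.80 in TGR5-KO and 11.4 ± 3.30 in CYP7a1-KO larvae (SD, n = 4 each). Ribosomal protein genes themselves moved less: 14 of 61 rose and 0 fell, with a median log2 change of 0.28, and rps16 at 990 ± 77.6 in TGR5-KO and 711 ± 45.7 in CYP7a1-KO larvae had a log2 change of 0.48 ± 0.13 (edgeR adjusted p = 0.00475).

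Proteasome subunits, which degrade ubiquitinated proteins, were higher for 19 of 29 genes and lower for 0, with a median log2 change of 0.60 and no negative value among the 29. psmd12 stood at 68.7, 54.4, 68.7 and 58.6 scaled CPM in TGR5-KO, against 34.5, 38.5, 27.2 and 30.2 in CYP7a1-KO larvae. Nuclear-encoded subunits of oxidative phosphorylation were higher for 25 of 60 genes (41.7%) and lower for 0, with a median log2 change of 0.41. Their median was -0.05 for TGR5-KO over SLC45a2-KO and -0.41 for CYP7a1-KO over SLC45a2-KO. cycsb, a cytochrome c gene, averaged 210 ± 28.2 in TGR5-KO and 91.3 ± 14.5 in CYP7a1-KO larvae (SD, n = 4 each; log2 change 1.2 ± 0.17, edgeR adjusted p = 8.5e-07). The nuclear-encoded subunits and the share of the mitochondrial genome entry, which was lower in TGR5-KO larvae, thus lay on opposite sides. That holds for this single entry only. The share of entries named as single mitochondrial genes overlapped, at 2.56 to 2.84% in TGR5-KO and 2.71 to 2.97% in CYP7a1-KO libraries.

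Replication genes were also higher. Of 40 proliferation genes 19 (47.5%) rose and 0 fell, with a median log2 change of 0.93. Their median was 0.11 for TGR5-KO over SLC45a2-KO and -0.86 for CYP7a1-KO over SLC45a2-KO. mcm2, a subunit of the replicative helicase, stood at 116, 95.9, 117 and 102 scaled CPM in TGR5-KO, against 11.5, 19.3, 19.7 and 22.8 in CYP7a1-KO larvae and 33.0 to 47.2 in SLC45a2-KO larvae (log2 change 2.55 ± 0.36, edgeR adjusted p = 1.94e-05). The 3 groups did not overlap for mcm2, with SLC45a2-KO larvae in the middle. mcm3, another helicase subunit, averaged 43.3 ± 10.02 in TGR5-KO and 8.46 ± 3.09 in CYP7a1-KO larvae (SD, n = 4 each). uhrf1, which couples replication to DNA methylation and is known in zebrafish for liver outgrowth, averaged 59.5 ± 9.07 in TGR5-KO and 12.3 ± 1.92 in CYP7a1-KO larvae (SD, n = 4 each). cdkn1a, the cell cycle inhibitor p21, was higher in the same libraries, at 29.3, 22.4, 21.2 and 29.2 in TGR5-KO, against 3.91, 2.61, 2.46 and 3.99 in CYP7a1-KO larvae (log2 change 2.98 ± 0.36, adjusted p = 1.12e-07). RNAs of helicase subunits, which act in replication, and of p21, which restrains it, were therefore high in the same pools of larvae.

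Of the highest-ranking single genes, srrt, which encodes a partner of the nuclear cap-binding complex, had the largest positive log2 change among symbol-named genes with a mean of at least 5 CPM in which the groups did not overlap. It stood at 8.69, 39.2, 38.1 and 15.9 scaled CPM in TGR5-KO, against 1.84, 1.203, 0.983 and 4.37 in CYP7a1-KO and 1.28 to 2.24 in SLC45a2-KO larvae (log2 change 3.59 ± 0.40, edgeR adjusted p = 1.6e-08). The TGR5-KO libraries varied among themselves more for srrt than for the chaperones. Fitted on the 8 libraries with the same genes, the adjusted p of srrt was 0.00757.

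Genes of bile acid synthesis, the pathway that starts with CYP7A1, were called about as often as genes in general. Of 10 tested genes of bile acid synthesis, 1 rose and 1 fell, against 11.8% higher and 9.27% lower among all genes, and 6 of the 10 did not overlap between the groups, against 27.3% of all genes. scp2a, a peroxisomal thiolase and sterol carrier, was higher at 180 ± 10.1 scaled CPM in TGR5-KO and 123 ± 31.9 in CYP7a1-KO larvae (SD, n = 4 each; log2 change 0.55 ± 0.16, edgeR adjusted p = 0.00764). That call was lost without CYP7a1-KO library 4 (adjusted p = 0.0715). cyp27a7, a member of the sterol 27-hydroxylase family, was lower at 2.82, 4.15, 2.24 and 0.871 in TGR5-KO, against 7.60, 8.62, 4.26 and 8.55 in CYP7a1-KO larvae (log2 change -1.52 ± 0.43, adjusted p = 0.00742). cyp8b1, the sterol 12α-hydroxylase that sets the mix of bile acids in mammals, stood at 22.6, 32.3, 28.9 and 27.01 in TGR5-KO, against 11.97, 21.3, 16.7 and 13.5 in CYP7a1-KO larvae. The groups did not overlap, but the test was not passed (log2 change 0.80 ± 0.33, adjusted p = 0.0822). It was passed in 5 of 20 alternatives, among them the fit of the 8 libraries alone (adjusted p = 0.0013), with a range of 0.000954 to 0.207. amacr, the racemase of side-chain shortening, was at 4.46 ± 0.818 in TGR5-KO and 1.99 ± 0.963 in CYP7a1-KO larvae (SD, n = 4 each; adjusted p = 0.113, and 0.046 to 0.297 over 20 alternatives, of which 3 passed), and hsd3b7 was listed at 0 in all 8 libraries. cyp27a7 and cyp8b1 were picked after their values were seen.

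Of 21 tested bile acid transporters, receptors and partners, 4 (19.05%) were higher in TGR5-KO larvae, against 11.8% of all genes. The 2 lower ones (9.52%) were close to the 9.27% of all genes. Between the groups 7 of the 21 did not overlap, against 27.3% of all genes. slc51a, one subunit of the basolateral exporter OSTα–OSTβ, stood at 49.5, 48.9, 68.3 and 42.0 scaled CPM in TGR5-KO, against 24.4, 24.7, 22.4 and 14.1 in CYP7a1-KO larvae and 28.1 to 32.3 in SLC45a2-KO larvae (log2 change 1.29 ± 0.19, edgeR adjusted p = 2.71e-06). abcb11b, related to the bile salt export pump, stood at 19.99, 26.1, 25.9 and 26.4 in TGR5-KO, against 11.97, 9.83, 14.7 and 12.2 in CYP7a1-KO larvae. Its log2 change of 1.01 ± 0.31 (adjusted p = 0.0207) passed the test in 14 of 20 alternatives and missed it without any one of 6 libraries (TGR5-KO libraries 2, 3 and 4, CYP7a1-KO libraries 1, 2 and 4), with an adjusted p of 0.0546 to 0.0602. fabp6, the ileal bile acid binding protein, stood at 643, 550, 908 and 770 in TGR5-KO, against 464, 352, 341 and 236 in CYP7a1-KO larvae and 721 to 999.7 in SLC45a2-KO larvae (log2 change 1.04 ± 0.29, adjusted p = 0.0126); without TGR5-KO library 3 or CYP7a1-KO library 4 the adjusted p was 0.0512 and 0.0555. The CYP7a1-KO larvae were thus the low group of the 3 for fabp6.

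klb, the co-receptor of the FGF19 family, was lower at 8.47, 4.38, 5.91 and 7.41 scaled CPM in TGR5-KO, against 21.6, 12.03, 8.85 and 11.96 in CYP7a1-KO larvae (log2 change -1.04 ± 0.34, edgeR adjusted p = 0.0233). Its adjusted p was 0.0586 to 0.146 without TGR5-KO library 2, TGR5-KO library 3 or CYP7a1-KO library 1. nr0b2a, the repressor SHP that bile acids induce through FXR in mammals, did not pass the test between the knockouts, at 7.17 ± 4.00 in TGR5-KO and 5.73 ± 1.45 in CYP7a1-KO larvae, with 43.2 ± 16.03 in SLC45a2-KO larvae (SD, n = 4 each; log2 change TGR5-KO over CYP7a1-KO 0.30 ± 0.54, adjusted p = 0.749). fgf19, the ileal hormone that represses bile acid synthesis, and slc10a1, a hepatic bile acid importer in mammals, were too low to be tested, with means of 0.856 and 0.591 in TGR5-KO and 0.684 and 0.591 in CYP7a1-KO larvae. slc10a2, the ileal importer, averaged 2.28 in TGR5-KO and 2.503 in CYP7a1-KO larvae, and its difference was not detectable at this depth.

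Cholesterol synthesis, which makes the substrate of CYP7A1, was higher in TGR5-KO larvae. Of 21 genes tested, 12 rose and 0 fell, all 21 had a positive change and the median log2 change was 0.98. hmgcs1, the synthase that forms HMG-CoA, stood at 157.5, 141.6, 204 and 142.2 scaled CPM in TGR5-KO, against 27.4, 36.3, 26.7 and 19.6 in CYP7a1-KO and 38.2 to 82.5 in SLC45a2-KO larvae (log2 change 2.55 ± 0.55, edgeR adjusted p = 0.00175). mvda, mevalonate diphosphate decarboxylase, averaged 28.2 ± 7.40 in TGR5-KO and 5.30 ± 2.11 in CYP7a1-KO larvae, and sqlea, squalene epoxidase, 19.9 ± 6.56 in TGR5-KO and 4.57 ± 1.54 in CYP7a1-KO larvae (SD, n = 4 each). cyp51, lanosterol demethylase, stood at 137, 88.5, 151 and 138 in TGR5-KO, against 48.6, 54.4, 27.2 and 38.0 in CYP7a1-KO larvae. The SLC45a2-KO libraries, at 97.1 to 166.1, overlapped the TGR5-KO libraries for cyp51 but not for hmgcs1. msmo1, a methylsterol oxidase, rose with a log2 change of 1.09 ± 0.37 (adjusted p = 0.031) and lost the call without any one of 4 libraries (TGR5-KO libraries 2 and 3, CYP7a1-KO libraries 3 and 4; adjusted p 0.0624 to 0.141). hmgcra, the reductase that limits the pathway, did not differ by the test, at 36.5 ± 7.48 in TGR5-KO and 35.9 ± 9.96 in CYP7a1-KO larvae (SD, n = 4 each; adjusted p = 0.967).

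Among genes that sense, take up and export sterols, those that passed the test went the other way. Of 20 tested, 0 rose and 6 fell. Called or not, 7 had a positive and 13 a negative change, with a median log2 change of -0.31. abca1a, which exports cholesterol to lipoproteins, stood at 19.99, 24.4, 10.6 and 21.8 scaled CPM in TGR5-KO, against 83.8, 91.1, 71.3 and 99.9 in CYP7a1-KO and 73.6 to 88.8 in SLC45a2-KO larvae (log2 change -2.17 ± 0.27, edgeR adjusted p = 1.38e-06). abcg1, a second sterol exporter, averaged 3.93 ± 1.35 in TGR5-KO and 9.85 ± 0.582 in CYP7a1-KO larvae, and mylipa, the ubiquitin ligase that degrades the LDL receptor, 3.99 ± 1.97 in TGR5-KO and 9.94 ± 1.71 in CYP7a1-KO larvae (SD, n = 4 each). In mammals these 3 genes are targets of the oxysterol receptor LXR. The LDL receptor gene ldlra (log2 change -0.41 ± 0.28) and the regulators srebf1 (-0.36 ± 0.19) and srebf2 (0.02 ± 0.17) did not pass the test, with adjusted p of 0.313, 0.17 and 0.96, and insig1 was listed at 0 throughout.

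Apolipoproteins and other secreted liver proteins were higher in TGR5-KO larvae. Of 23 lipoprotein genes 12 rose and 0 fell, with a median log2 change of 0.60. apoa4a stood at 262, 227, 311 and 294 scaled CPM in TGR5-KO, against 40.5, 35.3, 35.2 and 29.4 in CYP7a1-KO and 48.9 to 108 in SLC45a2-KO larvae (log2 change 2.96 ± 0.36, edgeR adjusted p = 4.19e-06). apoa1a, the main protein of high-density lipoprotein, averaged 807 ± 267 in TGR5-KO, with library 3 at 1202, and 211 ± 49.5 in CYP7a1-KO larvae (SD, n = 4 each). apoba, the backbone of triglyceride-rich particles, averaged 140 ± 37.9 in TGR5-KO and 37.2 ± 8.95 in CYP7a1-KO larvae, and apoc2, the activator of lipoprotein lipase, 416 ± 50.2 in TGR5-KO and 138 ± 30.3 in CYP7a1-KO larvae (SD, n = 4 each). The apoa4 genes are close copies in zebrafish, and how the authors' counting assigned tags between them is not given.

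Of 46 hepatocyte markers 25 (54.35%) rose in TGR5-KO larvae, against 11.8% of all genes. The 4 that fell (8.70%) were close to the 9.27% of all genes. fabp10a, the liver fatty acid binding protein used to mark zebrafish hepatocytes, stood at 1168, 1247, 1270.3 and 1106 scaled CPM in TGR5-KO, against 554, 621, 586 and 538 in CYP7a1-KO and 958 to 1363 in SLC45a2-KO larvae (log2 change 1.06 ± 0.15, edgeR adjusted p = 5.51e-07). tfa, transferrin, stood at 3505, 5060.5, 5097 and 4636 in TGR5-KO, against 2430.2, 1875, 1443 and 2107 in CYP7a1-KO and 3391 to 4550.0 in SLC45a2-KO larvae. cp, the copper oxidase ceruloplasmin, averaged 134 ± 26.5 in TGR5-KO and 53.7 ± 3.502 in CYP7a1-KO larvae (SD, n = 4 each), with 171 ± 13.4 in SLC45a2-KO larvae. For fabp10a, tfa and cp the SLC45a2-KO libraries lay near the TGR5-KO ones, and CYP7a1-KO larvae were the low group. The summed level of the 53 hepatocyte markers in the table was 20410 to 25186 scaled CPM in TGR5-KO libraries, against 12915 to 14955 in CYP7a1-KO libraries, with 5 markers (f9b, gsta.1, hnf4a, kng1, nr1h4) at 0 in all 8. The part of that marker level in the apolipoprotein, sterol and bile acid results was not tested.

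Of 38 acute phase and complement genes, also products of the liver, 17 were higher and 0 lower, with a median log2 change of 0.67. c9, of the membrane attack complex, averaged 92.6 ± 17.6 scaled CPM in TGR5-KO and 38.6 ± 5.94 in CYP7a1-KO larvae, and leap2, an antimicrobial peptide of liver and gut, 9.95 ± 2.72 in TGR5-KO and 1.31 ± 0.910 in CYP7a1-KO larvae (SD, n = 4 each). Of 20 genes of iron, copper and haem handling, 8 (40.0%) rose and 0 fell. Among all genes 11.8% were higher and 9.27% lower. Neutrophil genes had 0 of 12 called in either direction and macrophage genes 0 higher and 1 lower of 20, and the summed levels of both marker lists overlapped between the groups (1164 to 1388 in TGR5-KO and 1232 to 1509 in CYP7a1-KO larvae for 18 neutrophil markers, 578.8 to 618.1 in TGR5-KO and 545.4 to 621.4 in CYP7a1-KO larvae for 28 macrophage markers). The sums lack several defining markers, since 3 neutrophil markers (cebp1, lyz, nccrp1) and 5 macrophage markers (c1qa, c1qb, c1qc, mpeg1.1, slc7a7) were at 0 in all 8 libraries.

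**Figure D3:**
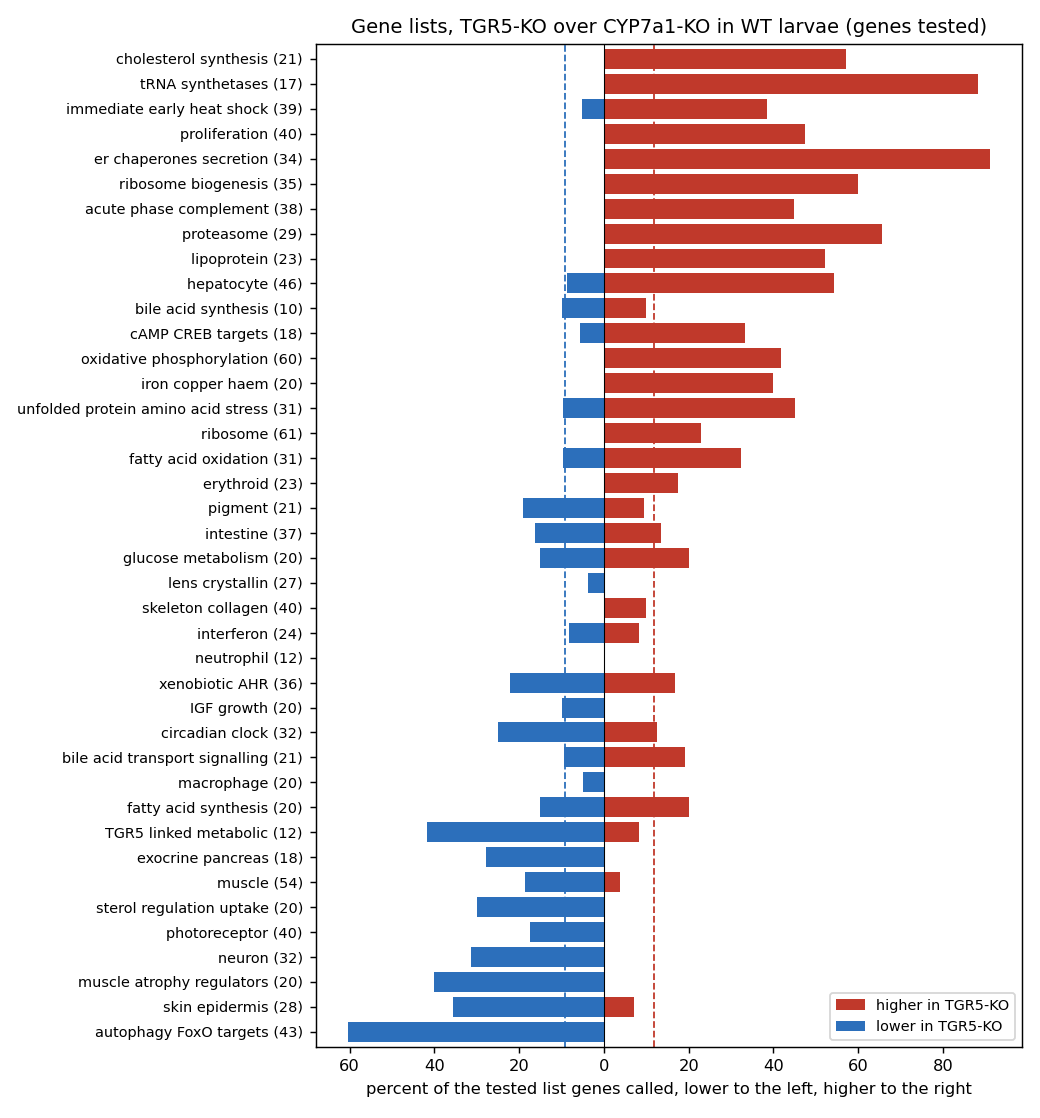
Percent of the tested genes of each list called higher (right) and lower (left) in TGR5-KO larvae than in CYP7a1-KO larvae, ordered by the list's median log2 change, with the number of genes tested in brackets. Dashed lines mark the shares among all genes tested, 11.8% higher and 9.27% lower. The lists of ribosome biogenesis, tRNA synthetases, ER chaperones and secretion, and autophagy and FoxO targets were chosen after the values had been seen.

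Genes that respond to fasting and insulin split. gck, hepatic glucokinase, which insulin and feeding induce in fish and mammals, stood at 95.6, 134, 108 and 66.4 scaled CPM in TGR5-KO, against 27.6, 12.6, 13.6 and 8.36 in CYP7a1-KO and 5.14 to 12.5 in SLC45a2-KO larvae (log2 change 2.71 ± 0.39, edgeR adjusted p = 2.83e-05). g6pca.2, a glucose-6-phosphatase, which acts in the opposite direction to glucokinase, was also higher, at 94.3 ± 6.19 in TGR5-KO and 37.8 ± 8.06 in CYP7a1-KO larvae (SD, n = 4 each). pck1, the gluconeogenic carboxykinase, did not pass the test (log2 change 0.07 ± 0.16, adjusted p = 0.803). igfbp1b, an IGF-binding protein that fasting induces, stood at 6.74, 5.76, 4.28 and 2.18 in TGR5-KO, against 16.8, 27.08, 23.9 and 22.0 in CYP7a1-KO larvae (log2 change -2.24 ± 0.53, adjusted p = 0.00409). Its paralog igfbp1a did not pass the test, at 60.7 ± 3.19 in TGR5-KO and 69.0 ± 6.71 in CYP7a1-KO larvae (SD, n = 4 each; adjusted p = 0.414).

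Genes of the FoxO and autophagy programme, which insulin signalling restrains in mammals, were lower in TGR5-KO larvae. Of 43 tested genes in a list compiled after the values had been seen, 0 rose and 26 fell, with a median log2 change of -0.92. foxo1a stood at 32.2, 28.6, 27.9 and 32.5 scaled CPM in TGR5-KO, against 134, 127, 140 and 111 in CYP7a1-KO and 81.0 to 90.1 in SLC45a2-KO larvae (log2 change -2.08 ± 0.17, edgeR adjusted p = 1.18e-12). The 3 groups were fully apart for foxo1a, with SLC45a2-KO larvae in the middle. pdk4, which shuts off pyruvate oxidation, stood at 21.3, 18.2, 22.6 and 11.5 in TGR5-KO, against 94.4, 91.1, 91.1 and 89.1 in CYP7a1-KO and 47.9 to 59.17 in SLC45a2-KO larvae (log2 change -2.31 ± 0.21, adjusted p = 2.24e-10). hbp1, a repressor of cell cycle genes, stood at 12.6, 18.2, 5.91 and 7.41 in TGR5-KO, against 108, 116, 104 and 116 in CYP7a1-KO and 83.7 to 113 in SLC45a2-KO larvae, a 10.1-fold difference. klhl24b, a kelch protein of the ubiquitin ligase type, averaged 6.68 ± 3.17 in TGR5-KO and 73.6 ± 12.1 in CYP7a1-KO larvae (SD, n = 4 each). map1lc3a, which encodes a coat protein of the autophagosome, averaged 4.57 ± 0.581 in TGR5-KO and 25.98 ± 3.87 in CYP7a1-KO larvae (SD, n = 4 each). For hbp1 the SLC45a2-KO libraries overlapped the CYP7a1-KO ones and TGR5-KO larvae were the low group.

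Muscle is the main tissue in which this programme is described as driving protein loss. Of 20 regulators of muscle atrophy 0 rose and 8 (40.0%) fell, against 9.27% lower among all genes. The list shares members with the FoxO and autophagy list, fbxo32 and map1lc3a among them, so the counts are not separate. fbxo32, the muscle ubiquitin ligase atrogin-1, stood at 2.17, 6.92, 3.06 and 0.654 scaled CPM in TGR5-KO, against 15.9, 21.5, 25.2 and 16.1 in CYP7a1-KO and 22.7 to 35.6 in SLC45a2-KO larvae (log2 change -2.63 ± 0.59, edgeR adjusted p = 0.00258). Of 54 structural muscle genes 2 rose and 10 fell, most did not pass the test, and the median log2 change was -0.28. myhz1.1, a fast myosin heavy chain of a cluster of close copies, fell to 857 ± 174 in TGR5-KO larvae, against 1998 ± 269 in CYP7a1-KO larvae, while myhb, another myosin heavy chain, rose to 292 ± 49.2 in TGR5-KO larvae, against 145.9 ± 27.3 in CYP7a1-KO larvae (SD, n = 4 each). The summed level of 64 muscle markers overlapped between the groups, at 80535 to 103923 in TGR5-KO and 97788 to 134727 in CYP7a1-KO larvae, with 6 markers (actn3a, casq1a, ckma, pvalb3, smyhc1, smyhc3) at 0 in all 8 libraries.

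Genes that bear on TGR5 through energy expenditure in mammals did not move in one direction. Of 12 tested genes in this list, 1 (8.33%) rose and 5 (41.7%) fell in TGR5-KO larvae, against 11.8% higher and 9.27% lower among all genes. Most that passed the test were thus lower. Called or not, 5 had a positive and 7 a negative change. dio2, the deiodinase that activates thyroid hormone, was higher, at 8.69, 16.6, 13.0 and 9.80 scaled CPM in TGR5-KO, against 3.22, 1.00, 1.64 and 2.66 in CYP7a1-KO and 4.92 to 7.92 in SLC45a2-KO larvae (log2 change 2.5 ± 0.40, edgeR adjusted p = 5.9e-06). dio3b, which inactivates the hormone, was lower, at 1.96, 3.46, 5.09 and 4.79 in TGR5-KO, against 27.9, 33.5, 25.2 and 26.02 in CYP7a1-KO and 7.60 to 13.8 in SLC45a2-KO larvae (log2 change -2.86 ± 0.63, adjusted p = 0.00211). The activating and inactivating deiodinases therefore differed in opposite directions. Neither overlapped between the groups, which for dio3b the rule that named it required. ucp1, uncoupling protein 1, stood at 279, 400, 391 and 310 in TGR5-KO, against 1579, 1132, 1080.0 and 1271 in CYP7a1-KO and 351 to 431 in SLC45a2-KO larvae (log2 change -1.87 ± 0.32, adjusted p = 0.000208). High ucp1 marked the CYP7a1-KO larvae, and TGR5-KO and SLC45a2-KO libraries overlapped. ucp2 averaged 93.6 ± 14.0 in TGR5-KO and 172 ± 23.1 in CYP7a1-KO larvae, and the mitochondrial coactivator gene ppargc1a 11.2 ± 3.33 in TGR5-KO and 22.4 ± 3.57 in CYP7a1-KO larvae (SD, n = 4 each). Fatty acid oxidation genes were mixed as well, with 10 of 31 (32.3%) higher and 3 (9.68%) lower. The lower share was close to the 9.27% of all genes. Among the lower ones was cpt1b, the muscle form of the mitochondrial fatty acid importer. It averaged 9.64 ± 2.91 in TGR5-KO and 28.7 ± 3.16 in CYP7a1-KO larvae (SD, n = 4 each).

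The xenobiotic list holds genes of the aryl hydrocarbon receptor, which senses planar aromatic compounds and some tryptophan metabolites. Of its 36 genes tested, 6 (16.7%) rose and 8 (22.2%) fell, with a median log2 change of -0.05. Among all genes 11.8% were higher and 9.27% lower. Some single genes differed widely. cyp1a, the classical target of the receptor, stood at 14.1, 18.2, 23.4 and 16.3 scaled CPM in TGR5-KO, against 175, 162.9, 132 and 243 in CYP7a1-KO and 17.8 to 26.5 in SLC45a2-KO larvae (log2 change -3.30 ± 0.45, edgeR adjusted p = 1.85e-05). ahrra, the repressor that the receptor induces, stood at 0.435, 0, 0.204 and 0.218 in TGR5-KO, against 11.5, 10.2, 14.4 and 17.1 in CYP7a1-KO and 0 to 1.25 in SLC45a2-KO larvae (log2 change -5.78 ± 0.79, adjusted p = 7.94e-07). In both genes TGR5-KO and SLC45a2-KO larvae lay together and CYP7a1-KO larvae stood apart. For the efflux pump gene abcb5 too the CYP7a1-KO larvae were the high group, at 18.8 ± 2.205 in TGR5-KO and 50.04 ± 11.8 in CYP7a1-KO larvae (SD, n = 4 each), with 9.58 to 18.4 in SLC45a2-KO libraries.

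Of the paralogous genes for tryptophan dioxygenase, which degrades tryptophan, one was low or without counts in each knockout. tdo2a, one of the tryptophan dioxygenase genes, had 23, 35, 31 and 27 counts in the TGR5-KO libraries, against 0 in each CYP7a1-KO library, at least 43.4-fold higher when the CYP7a1-KO group is set to 3 counts over its 4 libraries. tdo2b had 3, 3, 1 and 7 counts in TGR5-KO, against 57, 82, 73 and 66 in CYP7a1-KO libraries (log2 change -4.10 ± 0.79, edgeR adjusted p = 0.00059). Together they stood at 5.65 to 8.76 scaled CPM in TGR5-KO, against 11.96 to 16.4 in CYP7a1-KO and 15.3 to 20.8 in SLC45a2-KO larvae, and SLC45a2-KO libraries held both (tdo2a 4.70 to 7.501, tdo2b 7.92 to 16.05). The genes are paralogs, so the assignment of tags between them is uncertain. tdo2a was singled out after its values were seen.

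Genes with counts in every library of one group at 3 or more and none in the other numbered 10 with 0 in CYP7a1-KO and 10 with 0 in TGR5-KO larvae, of 25146 entries with a count in any of the 8 libraries. Besides tdo2a, the set absent from CYP7a1-KO larvae held mrc2, a collagen uptake receptor, with 56 counts over the 4 TGR5-KO libraries (at least 21.0-fold higher), and stx1a, a synaptic vesicle fusion protein, with 33 (at least 12.3-fold higher). The set absent from TGR5-KO larvae held upp2, a uridine phosphorylase, with 52 counts over the 4 CYP7a1-KO libraries (at least 15.4-fold lower in TGR5-KO), and vdrb, a vitamin D receptor gene whose mammalian counterpart also binds a secondary bile acid, with 40 (at least 11.9-fold lower). SLC45a2-KO larvae had 66 counts of mrc2, 11 of stx1a, 1 of upp2 and 34 of vdrb. These genes were chosen after their values were seen.

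Some genes of cell stimulation and of the clock also differed. Of 39 immediate early and heat shock genes 15 (38.5%) rose and 2 (5.13%) fell, with a median log2 change of 0.94. This list holds hspa5, hsp90aa1.1 and serpinh1b, described above, so its count is in part that of the chaperones. fosb, an AP-1 subunit, stood at 33.9, 33.7, 19.8 and 25.7 scaled CPM in TGR5-KO, against 4.61, 5.82, 4.75 and 5.32 in CYP7a1-KO and 15.1 to 21.9 in SLC45a2-KO larvae (log2 change 2.46 ± 0.25, edgeR adjusted p = 1.1e-09). atf3, a stress-induced factor, averaged 41.9 ± 7.64 in TGR5-KO and 7.93 ± 1.83 in CYP7a1-KO larvae, and nr4a3, an immediate early nuclear receptor, 18.01 ± 3.41 in TGR5-KO and 3.63 ± 0.691 in CYP7a1-KO larvae (SD, n = 4 each). Of 18 cAMP and CREB targets, which would report the branch TGR5 signals through in mammals, 6 (33.3%) were higher and 1 (5.56%) was lower in TGR5-KO larvae. Among all genes 11.8% were higher and 9.27% lower. The list holds fosb and nr4a3. Its median log2 change was -0.01 for TGR5-KO over SLC45a2-KO and -0.51 for CYP7a1-KO over SLC45a2-KO. CYP7a1-KO larvae thus lay farther from SLC45a2-KO larvae than TGR5-KO larvae did. Of 32 clock genes 4 rose and 8 fell. nr1d1, the repressor REV-ERBα, averaged 7.22 ± 2.15 in TGR5-KO and 1.27 ± 0.828 in CYP7a1-KO larvae (SD, n = 4 each). tefb, a PAR-domain factor, averaged 13.7 ± 1.01 in TGR5-KO and 47.7 ± 3.14 in CYP7a1-KO larvae, and cry1ab, a cryptochrome, 2.23 ± 0.702 in TGR5-KO and 8.37 ± 2.03 in CYP7a1-KO larvae (SD, n = 4 each). per2 averaged 23.2 ± 1.85 in TGR5-KO, 12.2 ± 2.17 in CYP7a1-KO and 44.8 ± 3.49 in SLC45a2-KO larvae (SD, n = 4 each). Its log2 change of TGR5-KO over CYP7a1-KO was 0.91 ± 0.21 (edgeR adjusted p = 0.00125), with both means below that of SLC45a2-KO larvae. per1b did not pass the test (0.31 ± 0.18, edgeR adjusted p = 0.219). The hour at which each pool was collected is not given.

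Markers of several tissues differed alongside. Among all genes tested 11.8% were higher and 9.27% lower, the shares against which the counts of these lists are read. Of 28 epidermal genes 2 rose and 10 fell, with a median log2 change of -0.57. icn2, an S100-type protein of the skin, stood at 108, 88.1, 61.3 and 68.6 scaled CPM in TGR5-KO, against 191, 162, 157.8 and 191 in CYP7a1-KO and 76.3 to 87.9 in SLC45a2-KO larvae, and the mucin gene muc5.1 averaged 67.2 ± 7.46 in TGR5-KO and 190 ± 51.8 in CYP7a1-KO larvae (SD, n = 4 each). krt97, a keratin, went against the list, at 148.2 ± 21.0 in TGR5-KO and 52.6 ± 16.1 in CYP7a1-KO larvae (SD, n = 4 each). The summed level of 34 epidermal markers was 3460.4 to 3606 in TGR5-KO, against 4892 to 5340.0 in CYP7a1-KO libraries, with 5 at 0 in all 8 (epcam, krt15, krt18a.1, krt5, si:ch211-195b11.3).

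Of 32 neuronal genes 0 rose and 10 fell, with a median log2 change of -0.33; elavl3, an RNA-binding protein of postmitotic neurons, averaged 112 ± 7.95 in TGR5-KO and 193 ± 9.53 in CYP7a1-KO larvae (SD, n = 4 each). Of 40 photoreceptor genes 7 were lower and 0 higher, among them pde6h of cones, at 289.8 ± 54.4 in TGR5-KO and 492 ± 52.7 in CYP7a1-KO larvae (SD, n = 4 each), while rho of rods did not pass the test (adjusted p = 0.784). Of 18 exocrine pancreas genes 5 were lower and 0 higher. prss1, trypsin, stood at 3116, 3807, 3615 and 2561 in TGR5-KO, against 4569, 4486, 4726 and 4405 in CYP7a1-KO larvae, a small and non-overlapping difference (log2 change -0.47 ± 0.13, edgeR adjusted p = 0.00545). Of 23 erythroid genes 4 (17.4%) were higher and 0 lower, against 11.8% higher and 9.27% lower among all genes. The summed level of 25 erythroid markers was 5235 to 6140.2 in TGR5-KO, against 3501 to 4117 in CYP7a1-KO libraries, with alas2, gata1a and hbbe2 at 0 in all 8. Among the remaining lists, intestine had 5 higher and 6 lower of 37, fatty acid synthesis 4 and 3 of 20, glucose metabolism 4 and 3 of 20, pigment cells 2 and 4 of 21, interferon response 2 and 2 of 24, skeleton and collagen 4 and 0 of 40, IGF and growth 0 and 2 of 20, and lens crystallins 0 and 1 of 27.

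**Figure D4:**
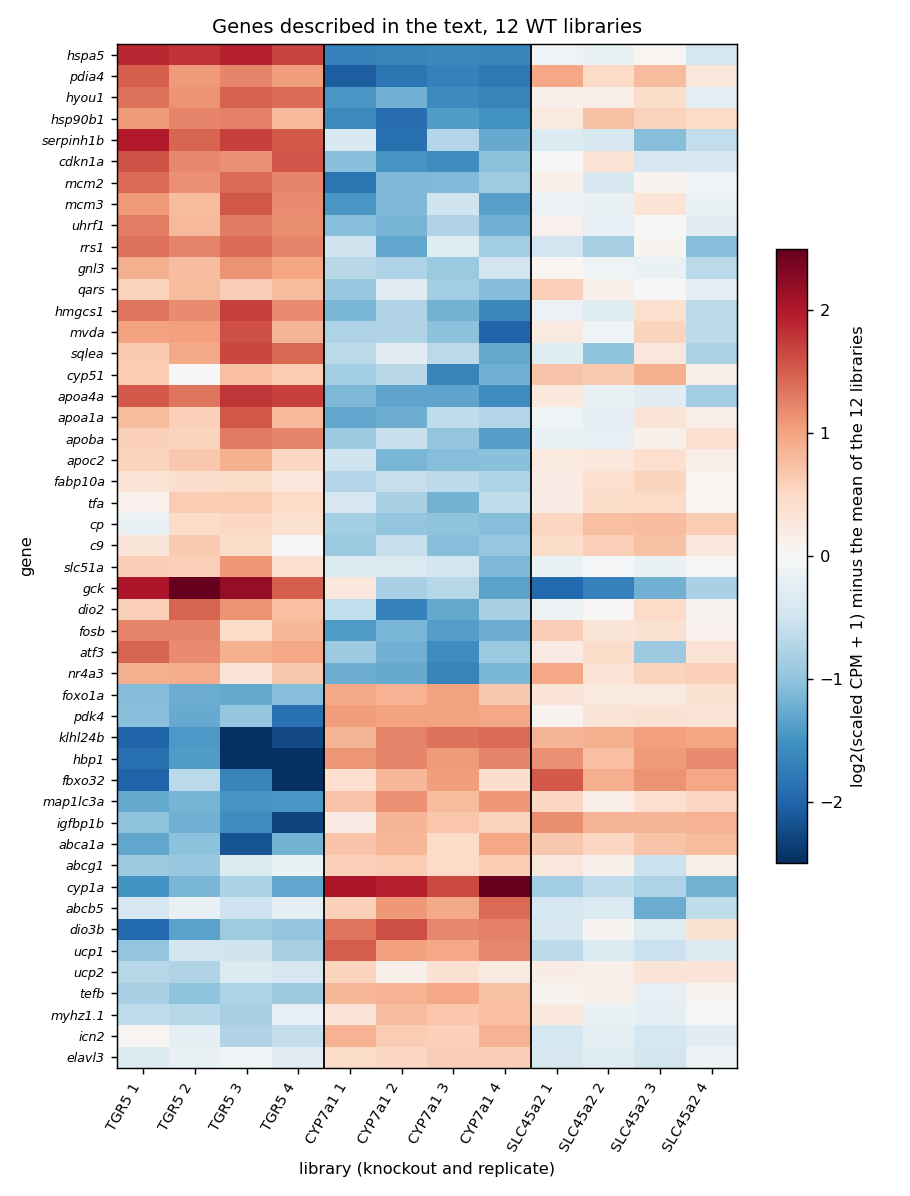
Log2(scaled CPM + 1) of 48 genes described in the text, less each gene's mean over the 12 WT libraries, in TGR5-KO, CYP7a1-KO and SLC45a2-KO larvae. The upper rows have a higher mean in TGR5-KO than in CYP7a1-KO libraries and the lower rows the reverse, with SLC45a2-KO libraries between them for many genes and beside one knockout for others (cyp1a and ucp1 beside TGR5-KO, hbp1 and abca1a beside CYP7a1-KO).

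Where the SLC45a2-KO larvae stood relative to the 2 knockouts was described without a test, because its place depends on ends that the test of the 2 knockouts chose. The mean of the SLC45a2-KO libraries lay between the TGR5-KO and CYP7a1-KO means for 1347 of the 1839 higher genes and 1119 of the 1439 lower genes, against 6783 of all 15521 tested. It lay beyond the TGR5-KO mean for 19.6% of the higher and 11.5% of the lower genes, and beyond the CYP7a1-KO mean for 7.12% of the higher and 10.8% of the lower genes. By list, the proteasome genes had a median log2 change of -0.12 for TGR5-KO over SLC45a2-KO and of -0.69 for CYP7a1-KO over SLC45a2-KO, and the hepatocyte markers 0.02 for TGR5-KO and -0.67 for CYP7a1-KO. The FoxO and autophagy list ran the other way, with medians of -0.91 for TGR5-KO over SLC45a2-KO and 0.06 for CYP7a1-KO over SLC45a2-KO. Ribosome biogenesis genes had 0.51 for TGR5-KO and -0.27 for CYP7a1-KO over SLC45a2-KO. In the same order, cholesterol synthesis had 0.22 and -0.72, lipoprotein genes 0.10 and -0.53, and acute phase and complement genes -0.17 and -0.89. Muscle atrophy regulators had -0.53 for TGR5-KO and 0.20 for CYP7a1-KO. Both of these comparisons share the SLC45a2-KO libraries.

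The same contrast in PY larvae gave few differences, which does not show that the knockouts were alike there. PY CYP7a1-KO libraries 1 and 2 had 32.4 and 33.5% of counts in the mitochondrial genome entry, against 23.3 to 26.1% in libraries 3 to 5. They also had fewer counts, 3760042 and 3377345, against 4384162 to 5348478. The number of PY calls without them is not given. Between PY TGR5-KO and PY CYP7a1-KO larvae, 5 libraries each, 21 of 15521 genes (0.135%) differed at an edgeR adjusted p under 0.05, 12 higher and 9 lower in TGR5-KO, and 1413 at an unadjusted p under 0.05. The difference between the knockouts in WT larvae was tested against the difference in PY larvae, and 2193 genes (14.1%) passed, 1262 with a more positive change in WT larvae and 931 with a more negative one. Of the 3278 genes called in WT larvae, 1878 also passed this test with the same sign and 0 with the opposite sign. The 1839 genes higher in WT TGR5-KO larvae had a median log2 change of 0.985 in WT and -0.05 in PY larvae, and the 1439 lower genes -1.026 in WT and 0.073 in PY larvae. The WT change is part of both tests, and the genes were chosen by it. The counts by sign and these medians therefore follow from that choice and are descriptive.

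hspa5, hbp1 and cyp1a were among the genes named for a large difference between backgrounds, so their values illustrate that difference and do not test it anew. In PY larvae hspa5 averaged 582 ± 399 scaled CPM in TGR5-KO and 799 ± 495 in CYP7a1-KO larvae (SD, n = 5 each). The spread was wide in both groups (WT minus PY log2 difference 3.96, edgeR adjusted p = 0.000564). hbp1 averaged 85.9 ± 33.4 in PY TGR5-KO and 50.7 ± 28.3 in PY CYP7a1-KO larvae (WT minus PY -4.11, adjusted p = 1.35e-05), and cyp1a 146.8 ± 91.7 in PY TGR5-KO and 84.1 ± 39.97 in PY CYP7a1-KO larvae (-4.11, adjusted p = 5.85e-05). hmgcs1 averaged 50.04 ± 44.8 in PY TGR5-KO and 86.3 ± 37.2 in PY CYP7a1-KO larvae (3.33, adjusted p = 0.00306). For bile acid genes, slc51a averaged 191 ± 35.8 in PY TGR5-KO and 236 ± 51.4 in PY CYP7a1-KO larvae (1.59, adjusted p = 1.72e-05), whereas fabp6, scp2a and cyp27a7 did not pass the test of the difference between backgrounds (adjusted p = 0.128, 0.548 and 0.156). Among all 15521 genes tested, 1262 had a more positive and 931 a more negative change in WT larvae. By list, tRNA synthetases had 11 of 17 genes and ER chaperones and secretion 22 of 34 with a more positive change in WT larvae. Both lists were compiled after the values had been seen, so these counts are descriptive. Ribosomal proteins had 1 of 61 in each direction. The oxidative phosphorylation list, with 25 of 60 higher in WT, had 6 with a more positive and 1 with a more negative change than in PY larvae.

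**Figure D5:**
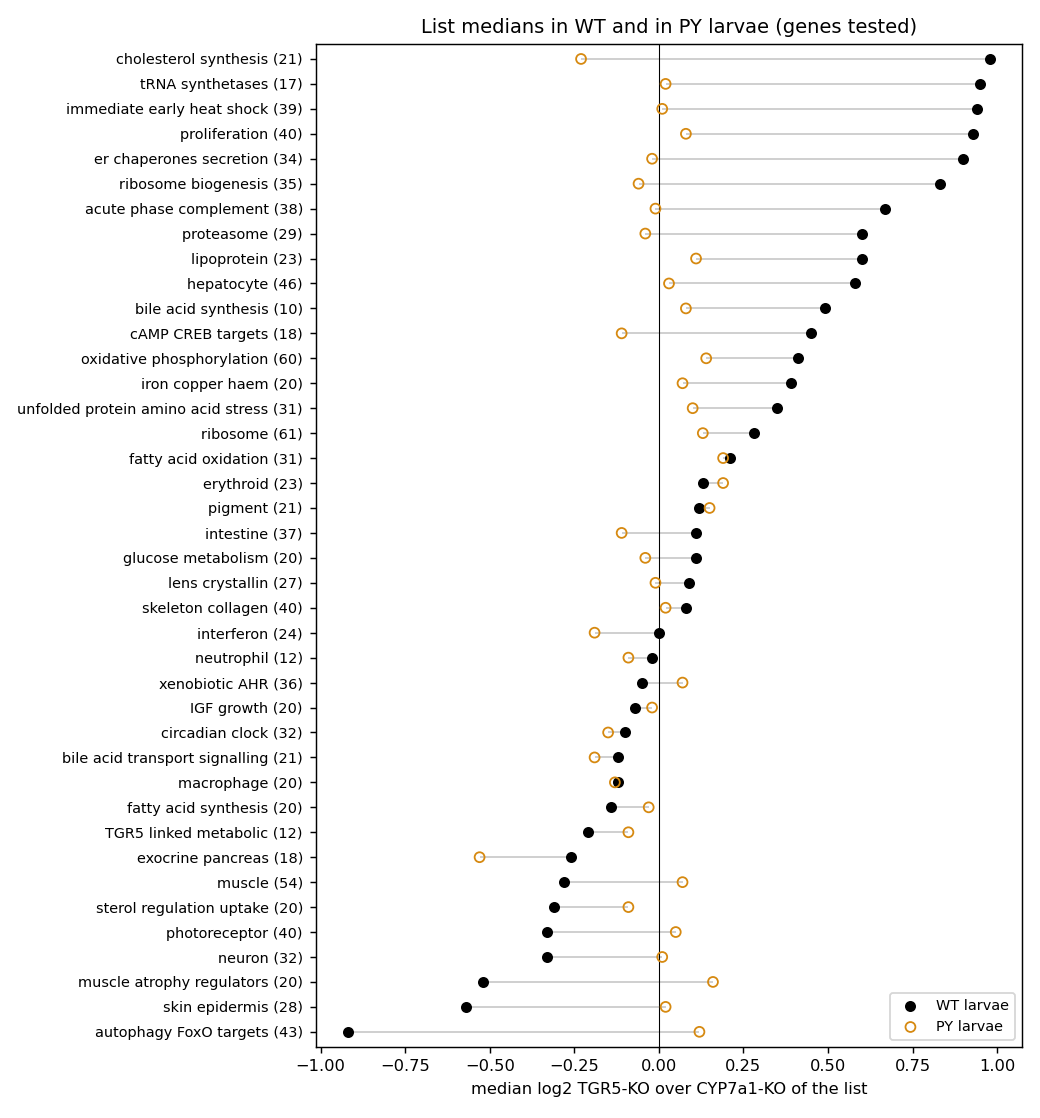
Median log2 change of each list, TGR5-KO over CYP7a1-KO, in WT larvae (filled circles, 4 libraries against 4) and in PY larvae (open circles, 5 against 5), with the number of genes tested in brackets. WT medians run from -0.92 for autophagy and FoxO targets to 0.98 for cholesterol synthesis, while PY medians lie between -0.53 and 0.19.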

How the data were processed

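Gene counts and CPM of 27 QuantSeq 3′ libraries were deposited by the authors in one table of 39988 entries. The counts are raw whole numbers, and the deposited CPM equal each count over its library total times 1000000, within 0.0005. Per the submitters' processing notes the builds named were danRer10 and GRCz11; no aligner, counter or annotation is named in the sources used. The members and gene lists were chosen with earlier results of these data known, and 4 of 40 lists were compiled after the values of this comparison had been seen. Of the listed symbols 1376 were found as written, 56 under an older name, and 53 found no entry.

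The deposited counts were tested with edgeR 4.0.16 (R 4.3.3), robust quasi-likelihood, TMM scaling, filterByExpr and 1 mean for each of 6 groups over all 27 libraries, so that the groups share one estimate of spread (common biological coefficient of variation 0.264). P-values were adjusted by Benjamini-Hochberg over 15521 genes at 0.05. Genes too low for the fit were compared by an exact permutation test (scipy 1.17.1). Simulated data with known changes recovered 1.49, 35.8 and 66.7% of genes changed 1.5-, 2- and 4-fold, with 1.43% of calls false. Only 67, 67 and 66 of 15521 genes were changed there, against 21.1% called in the real comparison. The adjusted threshold was thus stricter in the simulation, and these shares do not give the recovery in the real comparison. Named genes were the targeted genes and a fixed set of bile acid, sterol and energy genes. Added to these were the 12 largest changes per direction, up to 5 per list and the largest WT minus PY differences. These additions were taken among called genes averaging at least 5 CPM without overlap between groups. Genes outside the rule are marked in the text. Replicates are separate pools by label, and nothing says that they came from separate clutches. The p-values thus measure the spread between pools over all 27 libraries, PY pools included, which may be technical. They can be larger or smaller than those from the WT pools compared. Fitted on the 8 libraries with the same genes, the edgeR adjusted p was 1.86e-25 for hspa5 and 0.00757 for srrt, against 9.82e-05 and 1.6e-08 over all libraries. Replicate numbers did not pair libraries (correlation of deviations of same-numbered libraries -0.065 to 0.031). Alternatives were DESeq2 1.42.0, other scaling, filters, libraries and a replicate block. Depth limits low genes, and floors cover counting error only.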

Additional observations from a re-analysis of the deposited data

Results flagged for a closer look

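A test of the difference itself passed for 2193 genes, whose TGR5-KO over CYP7a1-KO change was not the same in WT as in PY larvae. Of all genes tested, 14.1% passed. Many genes named above were chosen for a large WT change or for this difference itself, so their counts follow from that choice. Among the genes named above, 44 had a more positive and 26 a more negative log2 change in WT than in PY larvae, given here as WT minus PY. In protein folding and growth control the values were 3.96 for hspa5, 3.41 for pdia4, 3.28 for hyou1, 2.97 for hsp90b1, 3.09 for hsp90aa1.1, 2.79 for serpinh1b, 3.89 for srrt and 3.42 for cdkn1a. Replication and protein production genes gave 2.72 for mcm2, 2.53 for mcm3, 2.51 for uhrf1, 2.39 for rrs1, 1.99 for gnl3 and 1.68 for qars. The cytochrome c gene cycsb gave 0.71 and the proteasome gene psmd12 gave 0.99. Sterol genes gave 3.33 for hmgcs1, 3.05 for mvda, 2.36 for sqlea, 1.80 for cyp51, 1.57 for msmo1, -2.32 for abca1a and -1.55 for abcg1. Liver products gave 2.70 for apoa4a, 1.16 for apoa1a, 1.81 for apoba, 1.17 for apoc2, 0.98 for fabp10a, 1.55 for tfa, 1.65 for cp, 1.18 for c9 and 3.03 for leap2. Bile acid and glucose genes gave 1.21 for abcb11b, 1.59 for slc51a, 2.1 for cyp8b1, -5.16 for vdrb, 3.62 for gck, 1.05 for g6pca.2 and -3.01 for igfbp1b. Energy and deiodinase genes gave 2.86 for dio2, -3.08 for dio3b, -1.81 for ucp1, -1.36 for ucp2, -1.34 for ppargc1a, -2.38 for cpt1b and -3.18 for pdk4. FoxO, autophagy and receptor targets gave -2.38 for foxo1a, -4.60 for klhl24b, -4.11 for hbp1, -2.76 for fbxo32, -2.71 for map1lc3a, -6.09 for ahrra, -4.11 for cyp1a and -1.17 for abcb5. Stimulus and clock genes gave 2.72 for fosb, 2.43 for atf3, 2.16 for nr4a3, 3.08 for nr1d1, 1.24 for per2, -2.41 for tefb and -2.71 for cry1ab. Tissue genes gave 1.41 for myhb, -1.26 for myhz1.1, 1.59 for krt97, -1.54 for icn2, -1.91 for muc5.1, -0.77 for elavl3 and -0.70 for pde6h, and the tryptophan dioxygenases 7.56 for tdo2a and -4.87 for tdo2b. The values for tdo2a and vdrb come from groups at 0 and are not bounds.

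One library stood far from the other 3 of its group in 6 gene and group pairs, 3.92% of those examined, while chance alone marks about 1 pair in 20, so these are no more than chance gives. In TGR5-KO larvae these were apoa1a, highest at 1202 scaled CPM in library 3, igfbp1a, highest at 65.5 in library 2, and abcb11b, lowest at 19.99 in library 1. In CYP7a1-KO larvae they were srebf1, lowest at 32.7 in library 4, apoc2, highest at 183 in library 1, and cry1ab, highest at 11.4 in library 4. None of the 8 libraries was the one apart in more than 2 of these pairs.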

How the results depend on the processing

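The count of 3278 genes between TGR5-KO and CYP7a1-KO larvae stayed within 1.5 times under each of 20 alternatives, and the share of higher calls among them lay between 52.6 and 57.9%. DESeq2 called 3609 genes. The fit of the 8 libraries alone called 4382, that of the 12 WT libraries 4461, and that of the 8 libraries on the same genes, chosen after seeing the data, 4491. Leaving out 1 library at a time called 2470 to 2814 genes. The replicate block, with the replicate number as a term, called 3216 genes over all libraries and 4167 over the 8, and since same-numbered libraries did not deviate together the numbers are not treated as a pairing; it ended none of the calls of named genes. For the difference between backgrounds, 2193 genes passed, 1746 to 2460 without 1 library, 2106 with the replicate block, 2478 by DESeq2 and 2393 without PY CYP7a1-KO libraries 1 and 2, which was added after seeing the data.

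Of the genes named, 5 lost their call without some library (msmo1, fabp6, abcb11b, scp2a and klb, given in the text), 3 gained one (cyp7a1, cyp8b1 and amacr, also given there), and no called gene changed sign. Genes that never passed did change sign. hmgcra, at a log2 change of 0.03, was at -0.01 with a filter of 5 CPM, -0.08 after thinning counts to the smallest library and -0.11 to 0.16 without single libraries. srebf2, at 0.02, was at -0.02 under that filter, -0.02 after thinning and -0.06 to 0.07 without single libraries. slc10a2, at -0.12, was at 0.10 after thinning and at -0.69 to 0.28 without single libraries. Without single libraries nr0b2a ran from -0.03 to 0.55, pck1 from -0.03 to 0.15 and rho from -0.03 to 0.15. The causes were not tested. In simulated data with far fewer changed genes than were called here, 35.8% of 2-fold and 1.49% of 1.5-fold changes were recovered. That setting differs from these data, so the shares do not apply to them directly. Genes that miss the threshold are not shown to be alike.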
